A study of Mus musculus with 28 samples.

Results

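The SLC2 sugar transporters are a family of membrane proteins that let glucose, fructose and related small molecules pass down their concentration gradient. The 9 genes described here were taken by symbol (*Slc2a1*, *Slc2a2*, *Slc2a3*, *Slc2a4*, *Slc2a5*, *Slc2a6*, *Slc2a8*, *Slc2a9* and *Slc2a10*) from the 21935 genes of the hepatic count table. Of these 9 members, 8 passed the filter on low counts that kept 12580 genes, and *Slc2a10* did not.

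Hepatic mRNA was sequenced from male B6.V-Lepob/JRj mice, which lack functional leptin, eat in excess and become obese. All groups carried this genotype, were 5 weeks old on arrival and were fed the AMLN diet, which supplies much fat, cholesterol and fructose, for 14 weeks before treatment and then throughout it. Mice were treated orally once daily for 2 weeks with the carboxymethylcellulose vehicle (n = 10), obeticholic acid (OCA) at 30 mg/kg (n = 9) or INT-787 at 30 mg/kg (n = 9). OCA and INT-787 are agonists of the farnesoid X receptor (FXR), a bile acid-sensing nuclear receptor, and there was no lean or chow-fed group, so every value is from a steatotic liver and none shows a healthy level.

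In hepatocytes glucose moves in both directions through the protein encoded by *Slc2a2*, a low-affinity carrier that also accepts fructose. Fructose has a dedicated carrier encoded by *Slc2a5*, best known from the small intestine, and the product of *Slc2a9* carries urate, which the liver makes from purines. The insulin-responsive carrier encoded by *Slc2a4* is the hallmark of muscle and fat, where insulin moves it from internal vesicles to the cell surface.

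Total counts ranged from 1009593 to 18342272 in the vehicle group, from 10990531 to 22421506 with OCA and from 12513715 to 22128216 with INT-787. Vehicle replicate 6 held the lowest total, the next lowest being 9313260, so that 1 count of a gene in that mouse equalled 0.919 CPM, the count scaled to a library of 1000000. Vehicle replicate 5 also stood apart: 4 low genes covered by a highly expressed gene on the opposite strand summed to 975 CPM there and to between 2.78 and 13.9 CPM in the other 27 mice. *Slc2a1* shared 105 bases of exon with an opposite-strand gene, and none of the other members shared any. FXR activity was visible in both drug groups. *Abcb11*, the bile salt export pump, averaged 364, 835 and 1182 CPM in the vehicle, OCA and INT-787 groups. Of the 5 target genes of FXR that were examined, *Abcb11*, *Slc51b* and *Nr0b2* rose and *Cyp7a1* and *Cyp8b1* fell with each compound. Of all 12580 genes, 10.2% rose and 9.48% fell with INT-787, against 4.15% and 2.45% with OCA.

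The promoter that bears on the strongest result is that of *Slc2a2*. The sequence shown is the 250 bases before its transcription start (RefSeq, build GRCm38.p6, plus strand, chr3:28697653-28697902). Below it stand the 189 bases at chr4:150119094-150119282 (plus strand) that end where the first annotated exon of *Slc2a5*, another member that rose, begins. Capitals mark AGGTCA on either strand, the half-site that many nuclear receptors recognize.
Slc2a2: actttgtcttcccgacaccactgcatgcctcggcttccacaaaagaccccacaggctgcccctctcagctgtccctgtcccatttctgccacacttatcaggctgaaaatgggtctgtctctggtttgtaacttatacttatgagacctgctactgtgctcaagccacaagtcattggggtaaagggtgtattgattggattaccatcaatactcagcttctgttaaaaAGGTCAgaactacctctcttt
Slc2a5: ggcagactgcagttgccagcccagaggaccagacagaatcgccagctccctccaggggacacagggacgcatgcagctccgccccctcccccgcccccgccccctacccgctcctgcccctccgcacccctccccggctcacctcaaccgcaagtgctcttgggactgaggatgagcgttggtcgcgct
*Slc2a2* held 1 such half-site, beginning 21 bases before its start, and the window of *Slc2a5* held none. Windows were listed for 7 of the 9 members, all but *Slc2a3* and *Slc2a4*. That of *Slc2a9*, which held 2 half-sites, was set aside because it opens at an exon that is internal in 6 annotated transcripts. The counts that follow thus leave out *Slc2a4* and *Slc2a9*, which also rose. Of the other 6 windows, 1 held the half-site, against 14% of all 32851 windows of 250 bases. The inverted repeat AGGTCANTGACCT, the FXR element, was searched with up to 2 mismatches at its 12 fixed positions and was met in 0.959% of all windows and in 0 of these 6, whose closest match had 4 mismatches. CACGTG, the E-box read by glucose-responsive factors, and GTTAAT, a half-site of HNF1, were met in 6.02% and 6.43% of all windows and in 0 of the 6. These matches describe letters in a short window and do not show which factor binds.

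The levels of the members differed by close to 3 orders of magnitude. In RPKM, which is CPM per kilobase of exon, *Slc2a2* averaged 100.6 ± 11.9 with vehicle (SD, n = 10), followed by *Slc2a9* at 9.39 ± 1.69, *Slc2a8* at 3.95 ± 0.755 and *Slc2a1* at 3.84 ± 0.66. *Slc2a5* averaged 1.5 ± 0.68 RPKM and *Slc2a4* 0.545 ± 0.391. *Slc2a6*, *Slc2a3* and *Slc2a10* were at 0.251, 0.146 and 0.111 RPKM. The ranges of *Slc2a2* and *Slc2a9* were apart from each other and from those of all lower members in every group, whereas *Slc2a8* and *Slc2a1* overlapped in all 3 groups and changed places with INT-787. With vehicle the levels of each neighbouring pair from *Slc2a5* down to *Slc2a10* also overlapped. Every member had at least 1 count in every mouse.

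In the vehicle, OCA and INT-787 groups the members summed to 120.4 ± 13.1, 183 ± 24.1 and 223 ± 25.5 RPKM. *Slc2a2* supplied 83.5%, 85.8% and 88.1% of these sums, and the sum of the other 8 members went from 19.7 ± 3.37 to 25.7 ± 2.49 and 26.4 ± 3.09 RPKM. The hepatocyte glucose carrier was the most abundant member in all 3 groups, and the urate carrier came next.

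**Figure D1:**
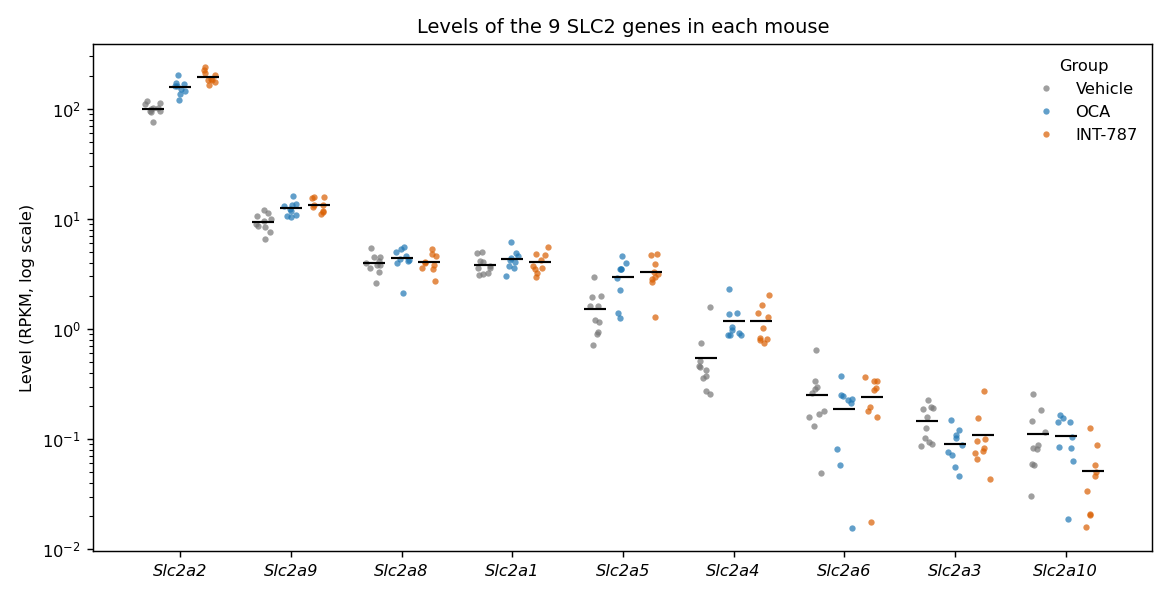
Level of each SLC2 gene in each mouse in RPKM on a log axis, for vehicle (gray, n = 10), OCA (blue, n = 9) and INT-787 (orange, n = 9); each point is a mouse and each bar a group mean. *Slc2a2* lies at 100.6 RPKM with vehicle, and *Slc2a3*, *Slc2a6* and *Slc2a10* lie below 1 RPKM in every mouse.

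The comparison of each compound with vehicle asked which carriers moved when FXR was activated in the steatotic liver. With counts scaled by TMM and edgeR's quasi-likelihood test, INT-787 raised 4 of the 8 tested members (*Slc2a2*, *Slc2a4*, *Slc2a5* and *Slc2a9*) and lowered 0, with the same counts from DESeq2 and limma-voom and 0 lower at an unadjusted p under 0.05. Among all 12580 genes, INT-787 raised 10.2% and lowered 9.48%. OCA raised the same 4 members and lowered 0, beside 4.15% of all genes raised and 2.45% lowered. DESeq2 and limma-voom gave the same counts for OCA, and 1 member, *Slc2a3*, was lower at an unadjusted p under 0.05. Both sets of values use the same vehicle mice. The median log2 fold change of the 8 tested members was 0.31 with INT-787 and 0.31 with OCA, against 0.00 and 0.02 over all genes. Because whole liver was sequenced, more RNA of a gene per cell and more cells of a type that expresses it cannot be told apart in any of these values.

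*Slc2a2* (GRCm38 chr3:28697903-28731359) was the member with the clearest change. With vehicle its lowest, median and highest levels were 438, 578 and 675 CPM, with OCA 697, 919.6 and 1157 CPM, and with INT-787 954, 1068 and 1380.1 CPM. Every mouse given either compound was above every vehicle mouse. Such a separation upward was seen in 1.79% of all genes with INT-787 and in 0.604% with OCA. The log2 fold change was 0.97 with INT-787 (SE 0.0925, adjusted p = 2.05e-09), a 1.95-fold level, and 0.65 with OCA (SE 0.0923, adjusted p = 1.29e-05), a 1.56-fold level. *Slc2a2* was also steady within groups, the coefficient of variation being 11.8%, 14.4% and 12.3% in the vehicle, OCA and INT-787 groups. Without vehicle replicates 5 and 6, a fit chosen after seeing the data, the values were 0.94 (adjusted p = 4.85e-08) and 0.62 (adjusted p = 0.000115).

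Hepatocyte markers moved in part with *Slc2a2*. The summed level of 6 markers (*Alb*, *Ttr*, *Apoa1*, *Cps1*, *Serpina1c* and *Hnf4a*) ranged from 61243 to 135570 CPM with vehicle, from 105190 to 197240 with OCA and from 94488 to 167050 with INT-787. Most of this sum was *Alb*, with means of 74111, 114240 and 100980 CPM in the vehicle, OCA and INT-787 groups. The mean sums were 94737, 137310 and 122350 CPM. Of the 6, *Alb* and *Cps1*, the first enzyme of the urea cycle, rose with each compound, beside 10.2% of all genes raised with INT-787 and 4.15% with OCA, and *Hnf4a*, a defining transcription factor of hepatocytes, had log2 fold changes of 0.07 with INT-787 and 0.06 with OCA and was not called. *Ttr* and *Serpina1c* had log2 fold changes of -0.33 and -0.19 with INT-787 and were not called, and *Serpina1c* was lower with INT-787 than under OCA (-0.64, adjusted p = 0.0306). The part of these markers in the result was not tested.

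*Slc2a5* (chr4:150119283-150144169), the fructose carrier, rose from a low level. Its lowest, median and highest levels were 2.41, 4.79 and 10.1 CPM with vehicle, 4.28, 11.8 and 15.6 with OCA, and 4.34, 10.6 and 16.4 with INT-787. The groups overlapped, the vehicle maximum being the shallow replicate 6 with 11 counts, and 8 of 9 INT-787 mice and 7 of 9 OCA mice exceeded the vehicle median. The log2 fold change was 1.24 with INT-787 (SE 0.244, adjusted p = 0.000379) and 1.09 with OCA (SE 0.245, adjusted p = 0.00391). Without vehicle replicates 5 and 6 these were 1.22 (adjusted p = 0.000657) and 1.07 (adjusted p = 0.00642). Despite a 2.37-fold level with INT-787, *Slc2a5* remained far below *Slc2a2*, at 3.29 ± 1.09 against 196.5 ± 24.3 RPKM.

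*Slc2a9* (chr5:38349273-38503143, minus strand), the urate carrier, rose by less but from a higher level. The lowest, median and highest levels were 33.5, 47.1 and 61.0 CPM with vehicle, 53.4, 62.9 and 82.0 with OCA, and 55.9, 67.5 and 80.4 with INT-787. The groups overlapped at their edges, although 9 of 9 mice in each drug group exceeded the vehicle median. The log2 fold change was 0.53 with INT-787 (SE 0.103, adjusted p = 0.000367) and 0.42 with OCA (SE 0.103, adjusted p = 0.00806). Vehicle replicate 5 had the lowest level, and without replicates 5 and 6 the values were 0.50 (adjusted p = 0.000664) and 0.40 (adjusted p = 0.0141).

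*Slc2a4* (chr11:69942539-69948188, minus strand), the insulin-responsive carrier, had the largest fold among the members and rested on few counts, from 6 to 50 per vehicle mouse and from 33 to 122 per treated mouse. Its lowest, median and highest levels were 0.899, 1.52 and 5.52 CPM with vehicle, 3.05, 3.41 and 7.95 with OCA, and 2.6, 3.54 and 7.01 with INT-787. The groups overlapped. The vehicle maximum was again replicate 6, with 6 counts, and the next vehicle mouse was at 2.62 CPM. The log2 fold change was 1.36 with INT-787 (SE 0.25, adjusted p = 0.000169) and 1.38 with OCA (SE 0.25, adjusted p = 0.000316). Without vehicle replicates 5 and 6 it was 1.41 (adjusted p = 0.000122) and 1.44 (adjusted p = 0.000242). Markers of the tissues best known for *Slc2a4* differed in level. Of 6 adipocyte markers, *Adipoq*, *Retn* and *Lep* had 0 counts in all 28 mice, and *Plin1* reached at most 0.157 CPM. *Cfd* and the lipid droplet gene *Cidec* averaged 2.92 and 201 CPM with vehicle. These 2 were tested and fell with both compounds, beside 9.48% of all genes lowered with INT-787 and 2.45% with OCA. The 6 skeletal muscle markers summed to at most 1.33 CPM in any mouse. The part of these markers in the result was not tested.

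**Figure D2:**
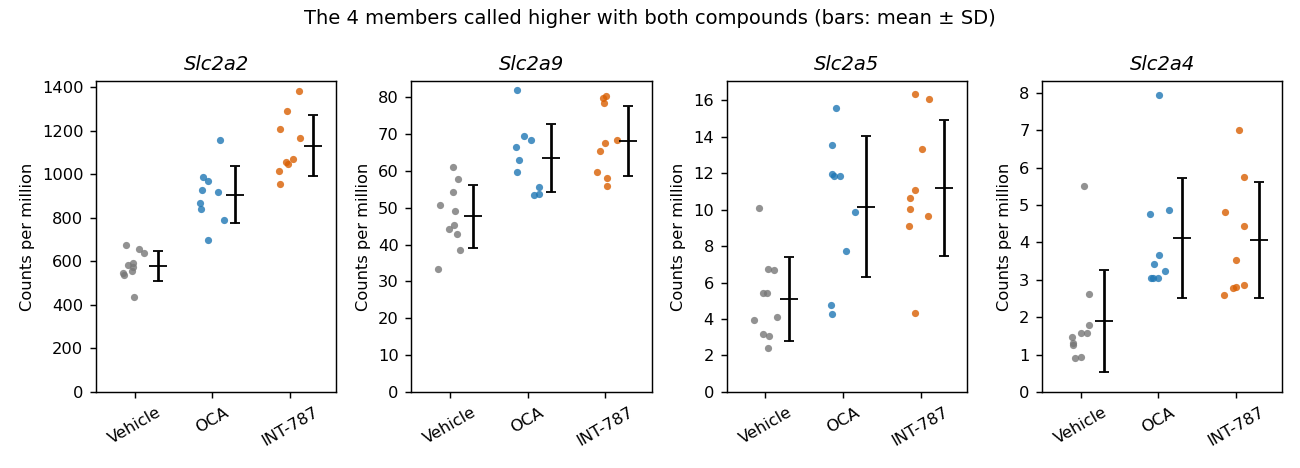
CPM of the 4 members that rose with both compounds, by group; each point is a mouse (vehicle n = 10, OCA n = 9, INT-787 n = 9) and the black bar is the mean ± SD. For *Slc2a2* all treated mice are above the vehicle maximum of 675 CPM, whereas the other 3 genes overlap, and the highest vehicle point of *Slc2a4* and *Slc2a5* is replicate 6.

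The other tested members did not pass the threshold with either compound. *Slc2a1*, which encodes the carrier of basal glucose uptake found in most cells, averaged 13.5 ± 2.31, 15 ± 3.17 and 14.2 ± 2.96 CPM in the vehicle, OCA and INT-787 groups. Its log2 difference from vehicle was 0.10 with INT-787 (95% interval -0.16 to 0.35) and 0.19 with OCA (-0.07 to 0.44). *Slc2a8*, an intracellular hexose carrier, was at 12.7 ± 2.42, 14 ± 3.22 and 13 ± 2.47 CPM in the same order, with intervals of -0.25 to 0.32 for INT-787 and -0.14 to 0.44 for OCA. For both genes the intervals thus reached no further than 0.44 upward, below the estimates for *Slc2a2* with each compound.

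*Slc2a3*, the high-affinity carrier known from neurons and white blood cells, held between 1 and 24 counts per mouse. It averaged 1.06 ± 0.375, 0.657 ± 0.236 and 0.78 ± 0.502 CPM in the vehicle, OCA and INT-787 groups, and 8 of 9 OCA mice were below the vehicle median. The log2 difference was -0.67 with OCA (95% interval -1.28 to -0.07, unadjusted p = 0.0302 and adjusted p = 0.205 in edgeR) and -0.45 with INT-787 (-1.05 to 0.14). Without INT-787 replicate 1, the highest of its group, the INT-787 value was -0.74 (adjusted p = 0.0531). *Slc2a6*, a lysosomal carrier known from leukocytes and macrophages, was at 0.807 ± 0.524, 0.606 ± 0.366 and 0.774 ± 0.363 CPM. Its intervals of -0.87 to 0.80 for INT-787 and -1.25 to 0.47 for OCA leave the direction of any change within them unresolved. *Slc2a10* had 1 to 11 counts per mouse and averaged 0.395, 0.38 and 0.182 CPM. In a fit without the filter its log2 difference was -0.86 with INT-787 (SE 0.406, adjusted p = 0.167) and 0.15 with OCA (SE 0.378, adjusted p = 0.921).

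Among markers of the immune cells known to use the *Slc2a3* and *Slc2a6* products, those of macrophages moved in part with INT-787. Macrophage markers (*Adgre1*, *Cd68*, *Csf1r*, *Clec4f*, *Vsig4*, *Cd5l*, *Gpnmb* and *Trem2*) summed to between 597 and 817 CPM with vehicle, 471 and 1066 with OCA, and 389 and 651 with INT-787. Of these 8 markers, 4 fell with INT-787 in edgeR and 5 in DESeq2 and limma-voom, beside 9.48% of all genes lowered, and 3 were lower than with OCA in edgeR, beside 3.19% of all genes. Of 6 neutrophil markers, 3 were tested and 0 were called with either compound in edgeR, DESeq2 or limma-voom, with 1 lower with INT-787 at an unadjusted p under 0.05. Stellate cell and fibroblast markers summed to between 1138 and 2082 CPM with vehicle, 1058 and 2631 with OCA, and 431 and 1054 with INT-787. Of these 6 markers, 3 fell with INT-787 in edgeR and 4 in DESeq2, beside the same 9.48%, and 2 were lower than with OCA in edgeR and 3 in DESeq2 and limma-voom. The part of these markers in the values of the members was not tested.

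**Figure D3:**
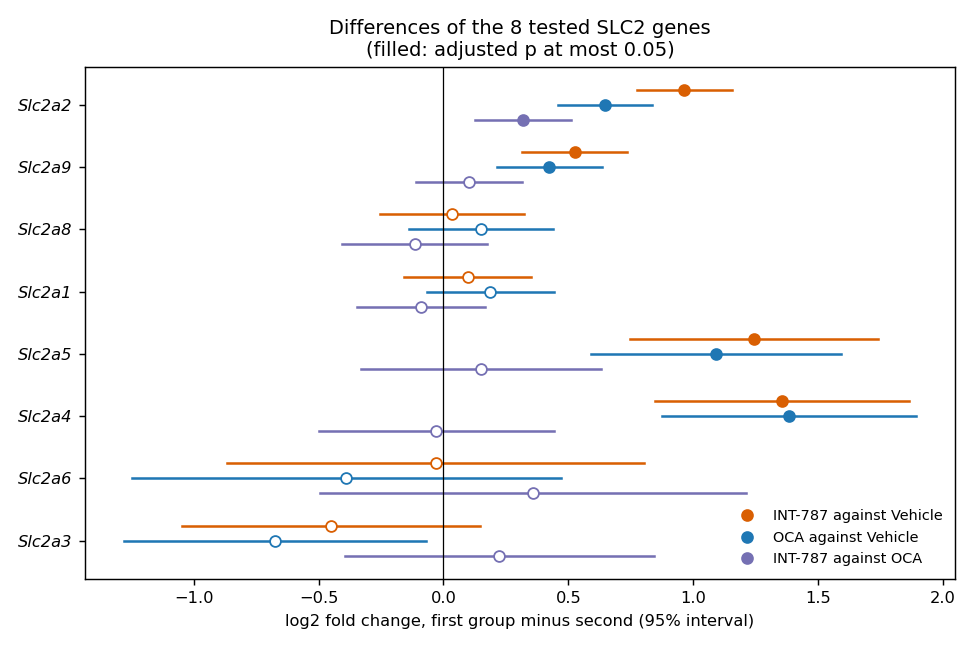
Log2 fold change of the 8 tested members with its 95% interval, for INT-787 against vehicle (orange), OCA against vehicle (blue) and INT-787 against OCA (purple); filled points have an adjusted p of at most 0.05 in edgeR. The orange and blue points of *Slc2a2*, *Slc2a9*, *Slc2a5* and *Slc2a4* are filled, and *Slc2a2* alone has a filled purple point, at 0.32.

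INT-787 and OCA were then compared at the matched dose of 30 mg/kg and the matched time of 2 weeks, as 1 pair of compounds. *Slc2a2* was higher with INT-787 by 0.32 on the log2 scale, a 1.25-fold level (SE 0.0946, 95% interval 0.13 to 0.51, adjusted p = 0.0406). The groups overlapped, since 4 of 9 INT-787 mice were above the OCA maximum of 1157 CPM, and 9 of 9 were above the OCA median. Over all genes, 2.19% were higher with INT-787 than with OCA, 3.19% were lower, and 0.199% were higher without overlap. No other member was called, and 0 were lower at an unadjusted p under 0.05 in edgeR or at an adjusted p of at most 0.05 in DESeq2 and limma-voom.

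The call for *Slc2a2* between the compounds lay near the threshold. In 28 fits that each left out 1 mouse the difference stayed between 0.28 and 0.37, and it was not called in 10 of the 28 fits. These were the fits without OCA replicates 2, 4, 5, 6 or 8 and without INT-787 replicates 1, 3, 6, 7 or 9, with the highest adjusted p, 0.0953, without OCA replicate 8. It was also not called in a fit of only these 2 groups (0.33, adjusted p = 0.0599) or without the filter (0.33, adjusted p = 0.0544). Of these 10 other alternatives, 8 kept the call, with adjusted p from 0.0112 (DESeq2) to 0.0496 (edgeR with upper-quartile scaling).

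**Figure D4:**
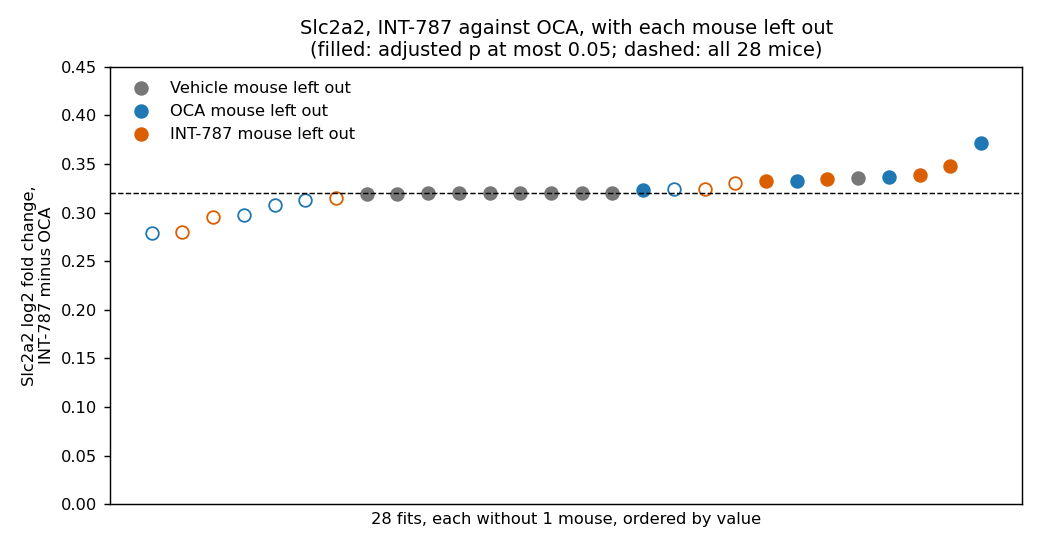
Log2 fold change of *Slc2a2*, INT-787 minus OCA, in 28 fits that each leave out 1 mouse, ordered by value and colored by the group of the mouse left out; filled points have an adjusted p of at most 0.05 and the dashed line is the value with all 28 mice. All 28 values lie between 0.28 and 0.37, and the 10 open points are fits without an OCA or an INT-787 mouse.

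For the other members that rose, the difference between the compounds was not resolved. It was 0.15 for *Slc2a5* (95% interval -0.33 to 0.63), -0.03 for *Slc2a4* (-0.50 to 0.44) and 0.10 for *Slc2a9* (-0.11 to 0.31). For *Slc2a9* the interval keeps any excess of INT-787 over OCA to at most 0.31 on the log2 scale, whereas the intervals of *Slc2a4* and *Slc2a5* are wider in both directions. *Slc2a1*, *Slc2a3*, *Slc2a6* and *Slc2a8* had differences between -0.12 and 0.36, and *Slc2a10*, without the filter, -1.01 (SE 0.398, adjusted p = 0.177).

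Within groups *Slc2a9* varied in part with the other members that rose. After each group's mean was removed from log2 CPM, the highest correlations between members over the 28 mice were those of *Slc2a9* with *Slc2a5* (r = 0.621), *Slc2a2* (r = 0.498) and *Slc2a4* (r = 0.49), and the lowest was that of *Slc2a1* with *Slc2a2* (r = -0.441). These are descriptions over mice that share library preparation and scaling. With the log2 library total, centered the same way, r was -0.485 for *Slc2a4*, -0.309 for *Slc2a5*, -0.248 for *Slc2a9* and 0.131 for *Slc2a2*.

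The genes most like each member were sought among tested genes with a mean of at least 5 CPM. The closest likeness belonged to *Slc2a9*, with *Dgat2*, an enzyme of the last step of triglyceride synthesis (r = 0.917, Spearman's rho = 0.92), *Slc38a3*, a glutamine carrier (r = 0.868), and *Slc15a4* (r = 0.847). The likeness of *Slc2a9* and *Dgat2* was 0.917 within the vehicle group, 0.895 with OCA and 0.963 with INT-787, and 0.893 over 26 mice without the 2 farthest from the median of *Slc2a9*. Where *Slc2a9* rose by 0.53 with INT-787 and 0.42 with OCA, *Slc38a3* rose by 1.04 (adjusted p = 3.56e-07) and 0.73 (adjusted p = 0.000244). *Dgat2* had log2 fold changes of 0.13 (adjusted p = 0.613) and 0.14 (adjusted p = 0.705) and *Slc15a4* of 0.24 (adjusted p = 0.159) and 0.18 (adjusted p = 0.457), and neither was called.

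**Figure D5:**
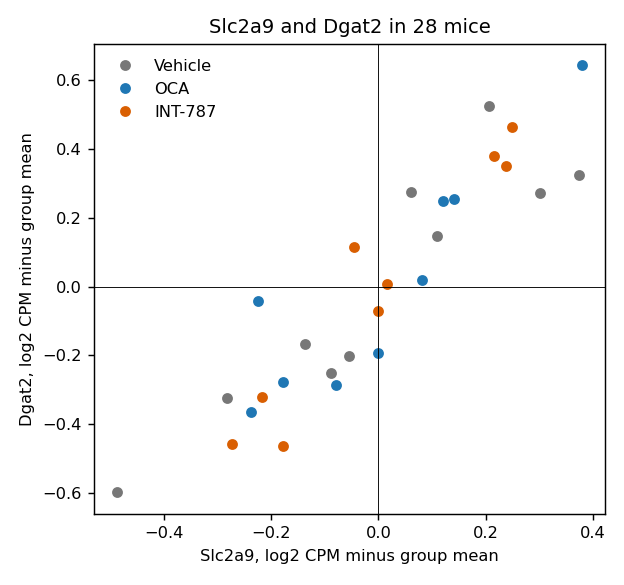
Log2 CPM minus the group mean of *Slc2a9* (horizontal axis) and *Dgat2* (vertical axis) in 28 mice, with vehicle in gray, OCA in blue and INT-787 in orange. The points of all 3 groups fall along 1 diagonal, with r = 0.917 over 28 mice.

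The other members had weaker matches. *Slc2a8* was most like *Tmem238* (r = 0.827), *Il17rc* (r = 0.814) and *Fem1a* (r = 0.801), and *Slc2a1* was most like *Gltp* (r = 0.772), *Dnajb1* (r = 0.7) and *Dpf2* (r = 0.697). *Slc2a2* was most like *Fastkd1* (r = 0.717), *Entpd5* (r = 0.709) and *Ptprd* (r = 0.707). *Slc2a5* was most like *Aqp4*, a water channel (r = 0.709), *Pyroxd2* (r = 0.701) and *Ddo*, D-aspartate oxidase (r = 0.698). For the members with few counts, *Slc2a6*, *Slc2a4* and *Slc2a3*, the highest values were 0.714 with *Gmip*, 0.658 with *Pex19* and 0.576 with *Mtss1l*.

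Sugar that enters through these carriers is next phosphorylated, and the enzymes of that step were examined beside the carriers. Of 20 genes of sugar phosphorylation and fructose breakdown, all tested, 5 rose and 2 fell with INT-787 in edgeR, with a median log2 fold change of -0.03, beside 10.2% of all genes raised and 9.48% lowered. For this list 6 were higher and 6 lower at an unadjusted p under 0.05, and DESeq2 and limma-voom each called 5 higher and 3 lower. With OCA 1 rose and 0 fell in edgeR (3 higher and 3 lower at an unadjusted p under 0.05), whereas DESeq2 and limma-voom each called 2 higher and 0 lower. *Gckr*, the regulator that holds glucokinase in the nucleus, rose from 85.1 ± 15.2 CPM with vehicle to 106 ± 14.5 with OCA (0.32, adjusted p = 0.0443) and 125 ± 16.1 with INT-787 (0.56, adjusted p = 0.000113).

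*Khk*, the ketohexokinase that traps fructose, averaged 610.1 ± 150.4, 827 ± 191 and 973 ± 158 CPM in the vehicle, OCA and INT-787 groups. It rose with INT-787 (0.67, SE 0.14, adjusted p = 0.000696) and had a log2 fold change of 0.44 with OCA (adjusted p = 0.0524). *Galm*, a mutarotase of galactose, rose by 0.36 with INT-787 (adjusted p = 0.00256). *G6pc*, the catalytic unit of the phosphatase that releases free glucose, fell from 109 ± 39.0 to 56.0 ± 30.8 CPM with INT-787 (-0.97, SE 0.253, adjusted p = 0.00636) and had a log2 fold change of -0.55 with OCA (adjusted p = 0.227).

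Of 15 other sugar carriers, 6 were tested and 1 rose with each compound, beside 10.2% and 4.15% of all genes with INT-787 and OCA, with 0 lower in edgeR, DESeq2 and limma-voom and 0 lower at an unadjusted p under 0.05. This was *Slc37a4*, which carries glucose 6-phosphate into the endoplasmic reticulum for the same phosphatase. It went from 123 ± 43.8 CPM with vehicle to 202 ± 41.2 with OCA (0.72, adjusted p = 0.00437) and 231 ± 54.5 with INT-787 (0.91, adjusted p = 0.000124). The carrier *Slc37a4* thus rose with INT-787, as *Slc2a2* did, while *G6pc* fell. The 15 carriers include the SLC2 genes *Slc2a7*, *Slc2a12* and *Slc2a13*, and of these only *Slc2a13* was tested. It was not called with INT-787 (0.26, adjusted p = 0.574) or OCA (0.22, adjusted p = 0.761) in edgeR.

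Of 8 genes of carbohydrate-responsive transcription, 2 rose with INT-787 (10.2% of all genes) and 1 with OCA (4.15% of all genes), and 0 fell in edgeR, DESeq2 and limma-voom or at an unadjusted p under 0.05. *Klf15*, a transcription factor of the fasted liver, rose from 56.3 CPM to 79.5 with OCA (0.52, adjusted p = 0.00104) and 79.2 with INT-787 (0.51, adjusted p = 0.000516). *Mlx*, the binding partner of the glucose-sensing factor ChREBP, rose by 0.27 with INT-787 (adjusted p = 0.0143) and had a log2 fold change of 0.19 with OCA (adjusted p = 0.158).

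Of 16 genes of insulin signaling and of the sorting of vesicles that hold the insulin-responsive carrier, 2 rose with INT-787 and 1 with OCA, and 0 fell in edgeR, beside 10.2% and 4.15% of all genes raised. At an unadjusted p under 0.05, 1 was lower with each compound, and DESeq2 called 1 lower with INT-787. *Vamp2*, a SNARE protein of those vesicles, rose from 12.7 CPM to 18.7 with OCA (0.52, adjusted p = 0.01) and 20.1 with INT-787 (0.62, adjusted p = 0.000689). *Irs2*, an insulin receptor substrate, rose by 0.34 with INT-787 (adjusted p = 0.0407) and had a log2 fold change of 0.05 with OCA (adjusted p = 0.888).

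Genes of urate handling moved in the largest share among these 5 sugar and urate lists. Of 11 genes, 9 were tested, and 5 rose with INT-787 and 3 with OCA, beside 10.2% and 4.15% of all genes, whereas 0 fell in edgeR, DESeq2 and limma-voom and 1 was lower at an unadjusted p under 0.05 with each compound. The median log2 fold change was 0.35 with INT-787 and 0.22 with OCA. *Xdh*, which makes urate, rose from 175 ± 29.5 CPM to 263 ± 51.4 with OCA (0.59, adjusted p = 0.000593) and 299 ± 40.0 with INT-787 (0.77, adjusted p = 5.18e-06). *Uox*, which breaks urate down in mice, rose from 1555 CPM to 2348 with OCA (0.60, adjusted p = 0.000447) and 2218 with INT-787 (0.51, adjusted p = 0.00102). The transporter gene *Slc17a2* rose by 0.51 with INT-787 (adjusted p = 0.000116) and by 0.39 with OCA (adjusted p = 0.00573), and *Slc17a4* rose with INT-787 (0.66, adjusted p = 0.000591). Thus *Xdh*, *Uox* and *Slc17a2* rose with both compounds, as *Slc2a9* did.

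Between INT-787 and OCA, these lists held few calls. Of the 20 genes of sugar phosphorylation and fructose breakdown, 1 was higher and 1 was lower with INT-787 in edgeR, beside 2.19% and 3.19% of all genes, with 3 higher and 2 lower at an unadjusted p under 0.05 and 2 higher and 1 lower in DESeq2. The genes called in edgeR, *Galk1* (0.51, adjusted p = 0.0195) and *Hkdc1* (-0.72, adjusted p = 0.0414), are named because of that count. In the lists of other sugar carriers, carbohydrate-responsive transcription, insulin signaling with vesicle sorting, and urate handling, 0 genes were called by edgeR, DESeq2 or limma-voom, and at an unadjusted p under 0.05 the numbers higher and lower were 1 and 0, 0 and 0, 1 and 0, and 1 and 1.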

How the data were processed

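Poly(A) RNA was isolated from snap-frozen liver of 28 mice, made into stranded libraries and sequenced. The authors aligned the reads with STAR to GRCm38 with Ensembl annotation and deposited raw counts per gene, without normalization, in 1 table with 1 column per mouse. The counting program and its use of strand are not given in the sources used here. Symbols and exon lengths came from GENCODE M21 (GRCm38), in which 21858 of 21935 identifiers matched.

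Counts were filtered with filterByExpr over the 3 groups (12580 genes kept), scaled by TMM and compared by the quasi-likelihood test of edgeR (glmQLFit and glmQLFTest, edgeR 4.0.16, R 4.3.3) in a single model of the 3 groups without covariates. P values were adjusted by the Benjamini-Hochberg method over all 12580 genes, and a gene was called at an adjusted p of at most 0.05. CPM used TMM-scaled totals, and RPKM divided these by the summed exon length. Values are mean ± SD. Intervals are 95% and assume the fitted spread between mice. DESeq2 1.42.0 and limma-voom (limma 3.58.1) were alternatives, beside other scalings, filters, blocks and each mouse left out. In the study's own analysis DESeq2 was used. The scripts were tested on simulated data.

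All 9 members are named. From each list of sugar and urate genes, those called in any comparison are named, at most 4 by smallest adjusted p. *Galk1* and *Hkdc1* are named beyond these for the comparison of the compounds, and all 5 FXR target genes are named. The genes named as most like a member are the 3 with the highest Pearson r of group-centered log2 CPM (prior count 2). The members and lists were chosen with earlier results of these data known. The labels number the mice without saying more about their origin, so each mouse was taken as 1 replicate. Within groups the smallest chi-square per gene between 2 libraries was 2.96 over 117 pairs, so no library appeared to repeat another. Promoter windows came from RefSeq.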

Additional observations from a re-analysis of the deposited data

Results flagged for a closer look

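In 5 of the 27 combinations of a member and a group, 1 mouse lay far from the others by Dixon's test, where chance alone marks about 1 in 20. For *Slc2a4*, vehicle replicate 6 was at 5.52 CPM (6 counts) against 2.62 for the next vehicle mouse, and OCA replicate 7 was at 7.95 CPM (122 counts) against 4.87. Without these mice the log2 fold change of *Slc2a4* with OCA was 1.46 and 1.21, and the call held in both fits. For *Slc2a3*, INT-787 replicate 1 was at 1.98 CPM (24 counts) against 1.12, and without it the log2 fold change of INT-787 against vehicle moved from -0.45 (adjusted p = 0.302) to -0.74 (adjusted p = 0.0531). For *Slc2a6*, vehicle replicate 10 was at 2.06 CPM (25 counts) against 1.08. For *Slc2a8*, OCA replicate 9 was at 6.81 CPM (136 counts), below the next mouse at 12.8. None of these 3 genes was called with or without that mouse.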

How the results depend on the processing

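*Slc2a2*, *Slc2a5* and *Slc2a9* were called higher with each compound against vehicle in all 28 fits that left out 1 mouse and in all 10 other alternatives, and *Slc2a4* in the same 28 and in the 9 that could test it, since a filter of at least 10 counts in every mouse removes *Slc2a4*, *Slc2a3* and *Slc2a6*. The number of members called between INT-787 and OCA, 1, became 0 with no filter and 0 with only the 2 groups compared, and ranged from 0 to 1 with each mouse left out, as given for *Slc2a2*. Among values that were never called, the direction for INT-787 against vehicle turned for *Slc2a8* with upper-quartile scaling (-0.027) and for *Slc2a6* with the replicate block (0.20). With each mouse left out, *Slc2a6* ranged from -0.18 to 0.25 and *Slc2a8* from -0.024 to 0.10 against vehicle, and INT-787 against OCA ranged from -0.061 to 0.34 for *Slc2a3* and from -0.16 to 0.15 for *Slc2a4*. The causes were not tested. The replicate block called 4, 4 and 1 members, as without it, and 2417, 868 and 677 genes in all. What the replicate numbers stand for is not given, and r of same-numbered mice exceeded 0.1 in 4, 3 and 7 of 9 pairs. For mice paired by runs of neighbouring sample numbers, r exceeded 0.1 in 5 of 9, 4 of 8 and 6 of 8 pairs. A block for these runs called 4, 4 and 1 members and 2710, 807 and 654 genes in all. Whether these numbers mark a block of the experiment was not tested. Members below 1 CPM rest on few counts, and for them only large changes could be detected.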
